A study of Mus musculus with 6 samples.

Results

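The genes described here are 10 genes of iron handling and metal buffering, namely Mt1, Mt2, Mt3, Fth1, Ftl1, Tfrc, Slc11a1, Slc11a2, Slc40a1 and Cp. They were chosen by name and taken by Ensembl identifier, and they are 10 of the 15441 genes with a value in the study. All 10 were listed in all 6 libraries. RNA came from the ipsilateral cerebral cortex of male C57/BL6J mice, 6 to 8 weeks old, taken 1, 3, 7, 14 or 28 days after photothrombotic stroke, in which the dye Rose Bengal clots cortical vessels under light. The control was a sham operation without illumination, with tissue taken at day 7 after surgery. The labels name no transgene or deletion. For each group RNA of 3 mice was combined into 1 library. Accordingly no value below has a replicate error and no test was possible. The differences are descriptions of 6 libraries, and which neighbouring levels differ beyond the spread between mice is unknown. All 5 comparisons share the sham library.

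Iron is taken up bound to transferrin by the transferrin receptor (Tfrc), crosses membranes through the divalent metal transporters (Slc11a2 in most cells, Slc11a1 in the phagosomes of macrophages), is stored in ferritin shells of heavy (Fth1) and light (Ftl1) chains, and leaves the cell through ferroportin (Slc40a1) with the help of the ferroxidase ceruloplasmin (Cp). Iron regulatory proteins bind a short hairpin, the iron-responsive element (IRE), when iron is scarce. They then block translation of messages with the element before the coding sequence and protect the Tfrc message, which has it after the coding sequence. Metallothioneins are small cysteine-rich proteins that bind zinc and copper. Mt1 and Mt2 are inducible by metals, glucocorticoids and oxidative stress, the metal response running through short metal response elements, whereas Mt3 is enriched in the brain.

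The IRE sequences are shown first because they mark messages that are candidates for this control. A search of all annotated untranslated regions for the 6-base loop CAGTGN between 5 paired stem bases, with an unpaired C before the stem, found 1 site each before the coding sequence of Fth1, Ftl1 and Slc40a1, and 4 sites after that of Tfrc. The same pattern occurred before the coding sequence in 0.151% of 20597 genes and after it in 0.615% of 20979 genes. No match was found in Slc11a1, Slc11a2, Cp or the metallothioneins. The pattern allowed no bulge within the 5 stem pairs, so it can miss elements. A gene without a match may still carry one, and Tfrc may carry further ones. Sequences are on the gene's strand, 5′ to 3′, from the GENCODE M21 transcripts of GRCm38, with the loop in capitals. The positions given run from the bulged C to the end of the stem.
Fth1 (chr19:9982738-9982754, + strand): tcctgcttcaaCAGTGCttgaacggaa
Ftl1 (chr7:45459785-45459801, − strand): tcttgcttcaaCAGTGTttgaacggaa
Slc40a1 (chr1:45925471-45925487, − strand): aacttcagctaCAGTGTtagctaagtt
Tfrc site 1 (chr16:32631225-32631241, + strand): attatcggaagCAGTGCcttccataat
Tfrc site 2 (chr16:32631604-32631620, + strand): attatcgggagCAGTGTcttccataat
Tfrc site 3 (chr16:32631669-32631685, + strand): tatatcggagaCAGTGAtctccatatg
Tfrc site 4 (chr16:32631716-32631732, + strand): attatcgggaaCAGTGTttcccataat
Each of the 3 sites before a coding sequence lies within the first exon that the authors' tables list for that gene, and the 4 Tfrc sites lie within its listed last exon (chr16:32630094-32632794).

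The metallothionein sequences are shown for their metal response elements, and no link between matches and levels was tested. The core of the metal response element was searched as TGCACNC and TGCGCNC on both strands. The RefSeq promoter windows (GRCm38.p6, the 250 bases before the start) held 3 matches for Mt2, 1 for Mt1 and none for Mt3. At least 1 match was found in 21.4% of 32851 such windows and at least 3 in 1.26%. The windows of Mt2 and Mt3 are given with matches in capitals, on the + strand.
Mt2 (chr8:94172368-94172617): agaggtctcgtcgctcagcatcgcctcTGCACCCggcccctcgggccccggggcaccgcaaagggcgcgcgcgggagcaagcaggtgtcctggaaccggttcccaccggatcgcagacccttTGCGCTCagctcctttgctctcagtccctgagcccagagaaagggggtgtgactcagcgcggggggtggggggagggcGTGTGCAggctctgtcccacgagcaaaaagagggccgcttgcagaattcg
Mt3 (chr8:94152357-94152606): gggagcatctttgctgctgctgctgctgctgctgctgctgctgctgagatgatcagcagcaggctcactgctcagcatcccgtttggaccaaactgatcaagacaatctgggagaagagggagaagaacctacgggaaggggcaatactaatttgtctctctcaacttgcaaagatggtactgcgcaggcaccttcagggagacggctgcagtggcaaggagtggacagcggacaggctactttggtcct

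The annotated starts can lie upstream of the core promoter, so the first 200 transcribed bases of each gene were searched as well. They held 4 matches in Mt1, 3 in Mt2 and 3 in Mt3. These bases were counted from the GENCODE start, which differs from the RefSeq start for Mt1 and Mt2. The Mt2 window ends at 94172617 and its transcript starts at 94172664, so the bases between were in neither search. The Mt1 window ends at 94179088, inside the transcript that starts at 94179082. At least 3 matches were found in 0.811% of 21822 genes and at least 4 in 0.124%. A match is only a run of letters, and the promoter search and the search of transcribed bases thus rank Mt3 differently against its neighbours. The 4 Mt1 sites are shown with 8 bases on each side.
Mt1 site 1 (chr8:94179091-94179097): gggagctcTGCACTCcgcccgaa
Mt1 site 2 (chr8:94179109-94179115): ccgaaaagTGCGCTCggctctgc
Mt1 site 3 (chr8:94179173-94179179): cgcctgctGGGTGCAaacccttt
Mt1 site 4 (chr8:94179187-94179193): aaacccttTGCGCCCggactcgt

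The tables of the authors give an FPKM (sequenced fragments scaled to transcript length and to the size of the library) for each transcript start, end or splicing event. A gene's level is the largest of its summed starts, its summed ends and any single event. Differences are log2((FPKM + 0.1)/(sham FPKM + 0.1)), and a gene is called higher or lower at a log2 ratio of at least 1 in size (2-fold). The libraries listed 13263 to 13987 genes, and the average depth stated was 33.6 M reads. The day 14 library stands apart. It lacked 36 genes that the other 5 libraries listed at a median FPKM of at least 5, against 0 to 3 such genes in each of the others, and its ratios to sham ran with transcript length (Spearman's rho across 12025 genes, which are not replicates, −0.413). The median log2 ratio of the 741 genes under 1000 nt was 0.44 at day 14, and rho was −0.254 at day 1 and between −0.0893 and 0.00325 at days 3, 7 and 28. The longest transcripts of Mt2 (511 nt), Mt3 (536 nt), Ftl1 (968 nt) and Mt1 (1085 nt) are short, so the value with this trend removed is given beside each day 14 result of theirs.

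At day 1, Mt1 and Mt2 were called higher and Slc40a1 lower among the 10 genes. Across all 11790 genes compared, 5.11% were higher and 4.48% lower. At day 3, Ftl1, Cp and Slc11a1 were higher and none was lower, beside 8.54% and 2.53% of all genes. At day 7, Ftl1 and Slc11a1 were higher and none was lower (8.53% and 2.12% of all genes). Day 14 had 4 genes higher, Mt1, Mt2, Ftl1 and Slc11a1, and none lower (8.97% and 6.92%). With the length trend removed only Slc11a1 was left, and with the ratios centred on the median gene or scaled to equal totals 2 of these 4 calls were left. At day 28 none of the 10 was past 2-fold, beside 3.68% of all genes higher and 2.79% lower. The median log2 ratio over the 10 genes was 0.28, 0.69, 0.45, 0.70 and −0.045 in order of day, beside 0.014, 0.029, 0.035, 0.098 and 0.027 over all genes. No gene of the 10 passed the threshold at day 28. At a threshold of 1.5-fold, 3, 6, 4, 7 and 1 of the 10 genes were higher in order of day, beside 11.5%, 15.9%, 15.3%, 18.5% and 8.93% of all genes. Lower were 1, 0, 0, 1 and 1 of them, beside 11.2%, 6.6%, 6.05%, 13.4% and 6.92%.

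**Figure D1:**
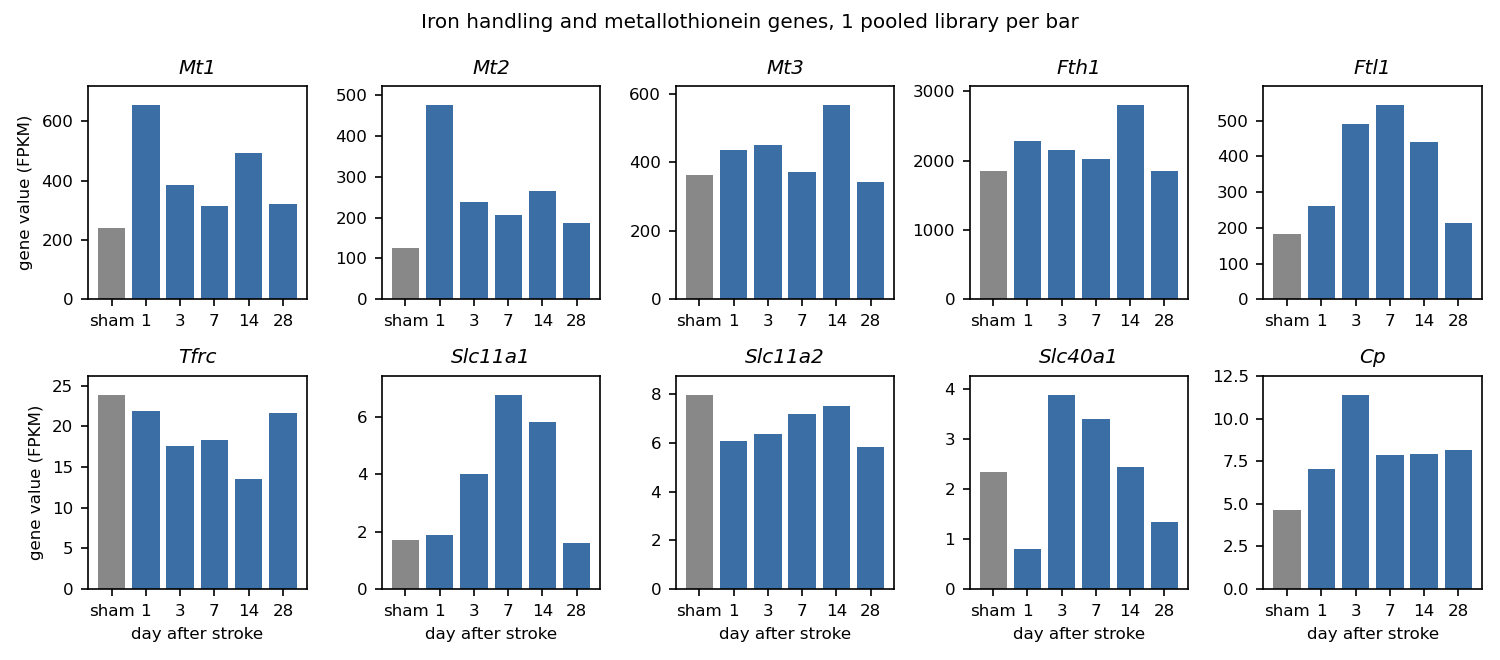
Gene level (FPKM, linear axis from 0) of the 10 genes in the sham library (grey) and in the 5 post-stroke libraries (blue), 1 pooled library per bar with no error bar. Mt1 and Mt2 are highest at day 1 (653 and 475 FPKM), Ftl1 and Slc11a1 at day 7 (543 and 6.75 FPKM), and Tfrc is highest in sham (23.8 FPKM).

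**Figure D2:**
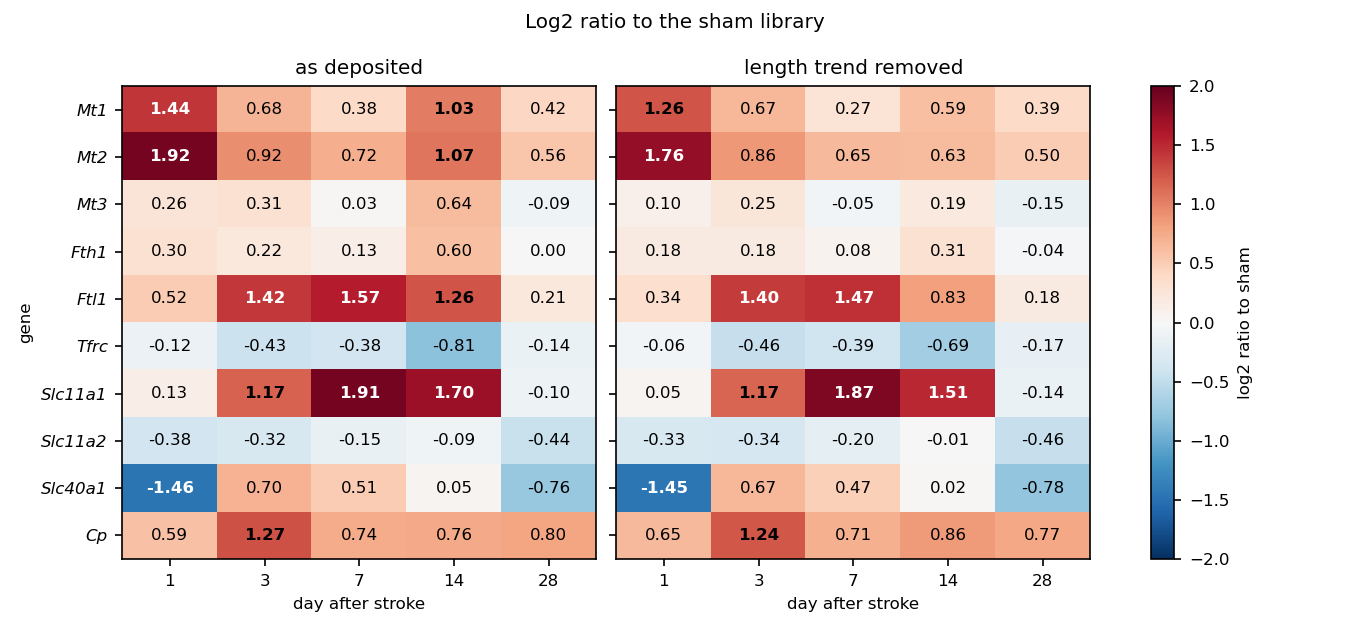
Log2 ratio to the sham library of each gene (rows) at each day (columns), as deposited on the left and with the transcript length trend removed on the right. Bold numbers are at least 1 in size, and the day 14 values of Mt1 (1.03), Mt2 (1.07) and Ftl1 (1.26) fall below 1 in the right panel.

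The inducible metallothioneins Mt1 (ENSMUSG00000031765, chr8:94179082-94180327, + strand) and Mt2 (ENSMUSG00000031762, chr8:94172664-94173568, + strand) lie side by side. The Mt1 level was 241 FPKM in sham, 653 (day 1), 386 (day 3), 313 (day 7), 492 (day 14) and 322 (day 28). Mt2 was at 126, 475, 239, 208, 265 and 186 FPKM in the same order. For both, every post-stroke library was above sham and day 1 was the highest. Day 14 came second as deposited but not with the length trend removed. The ratio of Mt2 to sham was 3.77-fold at day 1 (log2 1.92) and that of Mt1 was 2.71-fold (log2 1.44). With the length trend removed these day 1 values were 1.76 and 1.26. Mt2 placed 218th and Mt1 335th from the top among the 11790 genes compared at that day.

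The order of the later days depended on the length trend. At day 14 the log2 ratio was 1.03 for Mt1 and 1.07 for Mt2, and with the trend removed it was 0.60 and 0.63, below the threshold. The trend-removed values of Mt2 were then larger at day 3 (0.86) and day 7 (0.65) than at day 14, and that of Mt1 was larger at day 3 (0.67). Scaled to equal totals, Mt2 was at 0.92 at day 3 and 0.89 at day 14. When all ratios were centred on the median gene, Mt1 came to 0.93 and Mt2 to 0.97. At days 3, 7 and 28, Mt2 was at log2 0.92, 0.72 and 0.56 and Mt1 at 0.68, 0.38 and 0.42. The ratio of Mt2 to sham was thus above that of Mt1 at each of the 5 days, and both genes were still above sham in the day 28 library.

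Mt3 (ENSMUSG00000031760, chr8:94152607-94154146, + strand), the brain-enriched member, was the most abundant of the 3 in sham at 364 FPKM. It was at 434 (day 1), 450 (day 3), 371 (day 7), 566 (day 14) and 342 (day 28). No day reached 2-fold, the largest log2 ratio being 0.64 at day 14 (0.19 with the length trend removed). Mt3 thus moved less than its neighbours although the 3 genes sit within one stretch of chromosome 8. Its share of the summed metallothionein FPKM was 49.8% in sham and 27.8% at day 1, and 40.25% to 42.8% at the later days. The share of Mt2 went from 17.2% in sham to 30.4% at day 1 and that of Mt1 from 33.0% to 41.8%. The sum of the 3 was 731 FPKM in sham, 1563 (day 1), 1075 (day 3), 891 (day 7), 1322 (day 14) and 849.7 (day 28).

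**Figure D3:**
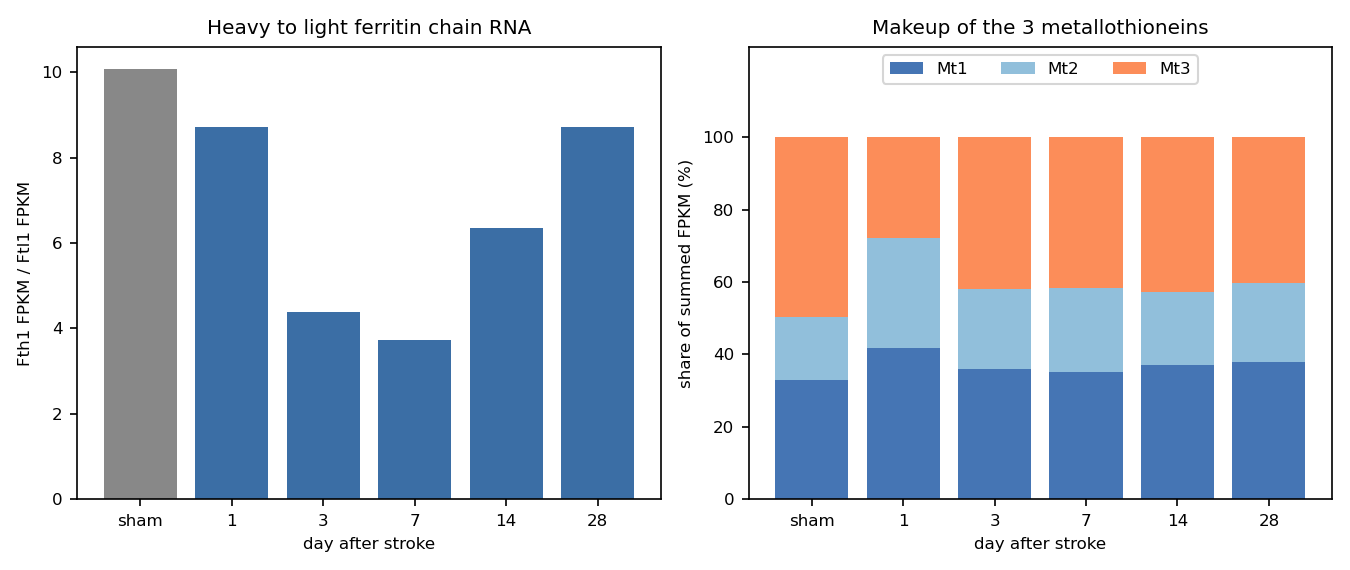
Left, heavy to light ferritin chain RNA as the ratio of Fth1 to Ftl1 FPKM in each library, which goes from 10.1 in sham to 3.72 at day 7 and 8.71 at day 28. Right, the share of each metallothionein in the summed FPKM of Mt1, Mt2 and Mt3 (%), where Mt3 has 49.8% in sham and 27.8% at day 1.

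The events of Mt2 differed between libraries. In sham and at days 3, 7 and 28 the whole level came from the annotated first exon (chr8:94172664-94172875). At day 1, 471.6 of 475.4 FPKM were given to a start 415 bases upstream (chr8:94172249-94172311), and at day 14, 262.4 of 264.8 FPKM. That start was not listed in the other 4 libraries and lies outside the annotated gene and upstream of the promoter window printed above. At day 1 the annotated exon had 1.396 FPKM and at day 14 it had 0.5455. The end of the gene (chr8:94173336-94173568) carried the full level in all 6 libraries, but it sums the same transcripts as the starts and is no separate measure. FPKM is scaled to transcript length, which changes with the start. Days 1 and 14 were also the libraries with the 2 strongest length trends, and the part of library differences in this switch was not tested. Mt1 had a single start in all 6 libraries and an end in the day 7 library only, whereas Mt3 had 1 start and 2 ends, the main one (chr8:94153901-94154146) carrying 347.7 of its 364 FPKM in sham.

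Ferritin heavy chain, Fth1 (ENSMUSG00000024661, chr19:9980598-9985098, + strand), which carries the ferroxidase centre, was the gene with the highest FPKM in every library but that of day 14, where it ranked second. It was at 1849 FPKM in sham, 2285 (day 1), 2147 (day 3), 2021 (day 7), 2796 (day 14) and 1849 (day 28). No library differed from sham by 2-fold. The largest log2 ratio was 0.60 at day 14 (0.31 with the length trend removed), and at day 28 the level was that of sham.

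Ferritin light chain, Ftl1 (ENSMUSG00000050708, chr7:45457944-45459884, − strand), which promotes formation of the iron core, had another profile. Its level was 183 FPKM in sham, 262 (day 1), 490 (day 3), 543 (day 7), 440 (day 14) and 212 (day 28). All post-stroke libraries were above sham, with the 3 from day 3 to day 14 at more than 2-fold. The log2 ratio was 0.52 (day 1), 1.42 (day 3), 1.57 (day 7), 1.26 (day 14) and 0.21 (day 28), and at day 14 it was 0.83 with the length trend removed. The gene moved from place 153 among all genes in sham to place 19 at day 7. As a result the ratio of Fth1 to Ftl1 was 10.1 in sham, 8.72 (day 1), 4.38 (day 3), 3.72 (day 7), 6.36 (day 14) and 8.71 (day 28). Both messages carry the IRE printed above, and RNA levels say nothing of their translation. Processed copies of both genes exist in the mouse genome. Their named pseudogenes were not listed, and how the authors assigned reads shared with them is not given in the sources used here, so the absolute levels are uncertain.

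Of the uptake genes, Tfrc (ENSMUSG00000022797, chr16:32608920-32632794, + strand) was highest in sham. It was at 23.8 FPKM in sham, 21.9 (day 1), 17.6 (day 3), 18.3 (day 7), 13.5 (day 14) and 21.7 (day 28). Every post-stroke library was below sham but none by 2-fold, the lowest log2 ratio being −0.81 at day 14 (−0.69 with the length trend removed). Hence, as deposited, the receptor message was lowest and the summed ferritin messages highest at day 14. With the length trend removed, the log2 ratio of Ftl1 was lower at day 14 (0.83) than at day 3 (1.40). That of Fth1 was higher at day 14 (0.31) than at day 3 (0.18), and the sum was not recomputed. The annotated first exon of Tfrc carried 22.2 FPKM in sham, 17.6 at day 1 and 12.5 at day 14. An internal start (chr16:32624442-32624826) was listed at 1.48 FPKM in sham, 3.90 (day 1), 2.59 (day 3), 2.69 (day 7), 1.02 (day 14) and 3.19 (day 28). Its share of the gene level was 6.21% in sham and 17.8% at day 1. The last exon, which holds the 4 IRE sites, followed the gene level with 22.4 FPKM in sham and 13.4 at day 14.

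Slc11a2 (ENSMUSG00000023030, chr15:100387898-100425072, − strand), the divalent metal transporter of most cells, varied least of the 10, its highest library being 1.37 times its lowest. Its level was 7.97 FPKM in sham, 6.08 (day 1), 6.39 (day 3), 7.19 (day 7), 7.51 (day 14) and 5.84 (day 28). All post-stroke gene levels were below sham, by a log2 ratio of −0.44 at most (day 28). Its single listed end (chr15:100387898-100389161) held only part of the level, from 19.75% at day 1 to 36.3% at day 14. The rest of the level had no listed end. This end alone was above sham at days 7 and 14 (log2 0.16 and 0.24), the opposite direction to the gene level.

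Slc11a1 (ENSMUSG00000026177, chr1:74375195-74386062, + strand), the metal transporter of macrophage phagosomes, behaved unlike Slc11a2. It was at 1.72 FPKM in sham, 1.89 (day 1), 4.0 (day 3), 6.75 (day 7), 5.83 (day 14) and 1.59 (day 28). The libraries of days 3, 7 and 14 were more than 2-fold above sham, and those of days 1 and 28 were near it. The log2 ratio was 1.17, 1.91 and 1.70 at days 3, 7 and 14, and 1.51 at day 14 with the length trend removed. Slc11a1 was therefore the only gene of the 10 whose day 14 call remained without that trend. The ratio of Slc11a1 to Slc11a2 was 0.216 in sham, 0.939 at day 7 and 0.273 at day 28.

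The level of Slc11a1 was split over 5 starts. The annotated first exon (chr1:74375195-74375321) gave 0.42 FPKM in sham, 1.34 (day 1), 2.43 (day 3), 3.26 (day 7), 3.96 (day 14) and 0.78 (day 28). A start further downstream (chr1:74375572-74375851) gave 1.01 FPKM in sham, 0.073 at day 1 and between 0.60 and 1.58 afterwards. The first exon alone was thus above sham at all 5 days and highest at day 14, with log2 ratios of 1.46 at day 1 and 2.96 at day 14. The maximum of the whole gene at day 7 rested on a further start (chr1:74381651-74381894), which had 1.95 FPKM at day 7 and at most 0.41 FPKM elsewhere. The order of days 7 and 14 thus depends on which starts are summed.

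The exporter ferroportin, Slc40a1 (ENSMUSG00000025993, chr1:45908068-45926523, − strand), was the only gene of the 10 called lower at any day. It was at 2.35 FPKM in sham, 0.792 (day 1), 3.87 (day 3), 3.39 (day 7), 2.43 (day 14) and 1.35 (day 28). The day 1 library was the lowest and the day 3 library the highest, with sham and day 14 between them at nearly equal levels. Day 1 was 2.74-fold below sham (log2 −1.46), and days 3, 7 and 14 stood at log2 0.70, 0.51 and 0.049. At these low levels the call rests on the pseudocount, since with a pseudocount of 1 FPKM the day 1 value was −0.90. Against the day 28 library in place of sham it was −0.70, and those of days 3 and 7 were 1.46 and 1.27. A single start and a single end carried the level in all 6 libraries.

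Ceruloplasmin, Cp (ENSMUSG00000003617, chr3:19957054-20009145, + strand), a copper ferroxidase that astrocytes display on their surface, was at 4.65 FPKM in sham, 7.06 (day 1), 11.4 (day 3), 7.86 (day 7), 7.95 (day 14) and 8.15 (day 28). Day 3 was the highest, and by the gene level all post-stroke libraries were above sham. By the summed ends day 28 was below it, at 1.15 against 1.59 FPKM (log2 −0.43). The log2 ratio was 1.27 at day 3 and 0.59 to 0.80 at the other days. At day 28 the log2 ratio of the gene level, 0.80, was the largest of the 10 genes. The summed ends, which hold only part of the level, went the other way as given. The annotated first exon was at 2.61 FPKM in sham and 5.72 at day 3, and an internal start (chr3:19974760-19975058) was at 2.00 and 5.57 FPKM. Both starts thus moved alike at day 3, with log2 ratios of 1.1 and 1.43. Of the 3 listed ends, the main one (chr3:19992509-19992582) was at 1.17 FPKM in sham, 2.49 at day 3 and 1.07 at day 28. That was 25.2%, 21.9% and 13.1% of the gene level. All 3 ends lie before the annotated end of the gene (20009145). Their sum held 1.59 of 4.65 FPKM in sham and 1.15 of 8.15 at day 28, so it measures only part of the gene. Hps3 overlaps Cp, and the unnamed model Gm45774 overlaps Mt2, on the opposite strand. The libraries kept strand, but whether the authors' counting used it is not given in the sources used here. On the summed ends alone the day 3 ratio of Cp was 0.84 and thus below the threshold.

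**Figure D4:**
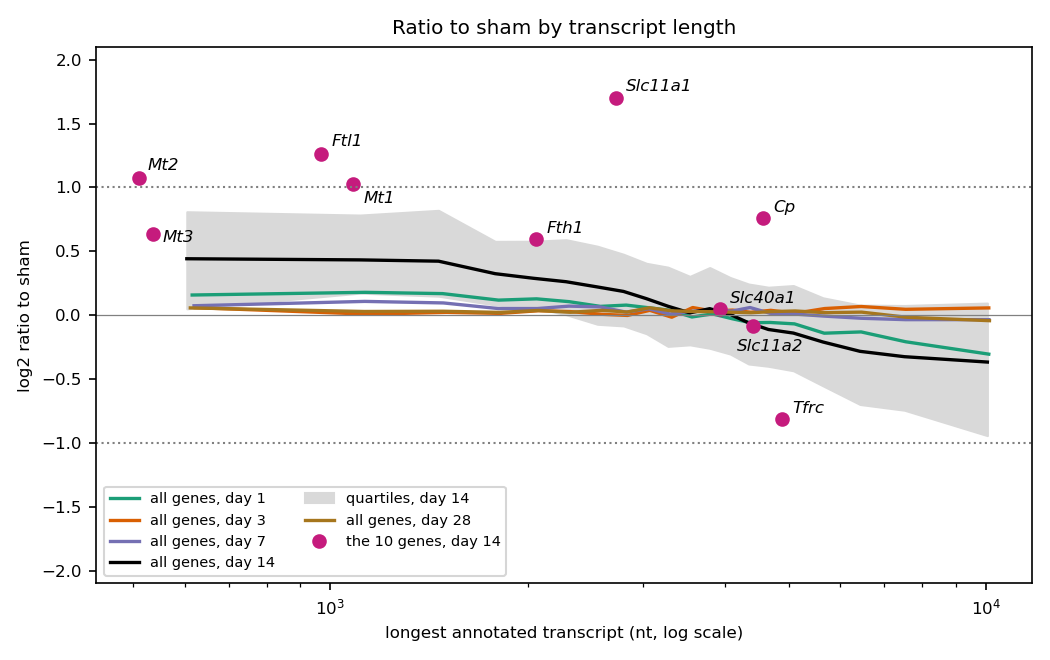
Log2 ratio to sham (y axis) against the longest annotated transcript (nt, log x axis). Lines are medians of all genes in 20 bins of length at each day, the grey band gives the quartiles at day 14, points are the 10 genes at day 14, and dotted lines mark 2-fold. At day 14 the median of genes under 1000 nt is 0.44, and Mt1, Mt2, Mt3 and Ftl1 lie above it at 0.64 to 1.26.

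In bulk tissue a change in the number of cells of a type and a change in RNA per cell cannot be told apart, so marker sums are given beside these profiles. For microglia and macrophages, 9 of 10 markers were listed in any library, Itgam in none, and Cx3cr1 and Tmem119 were not listed in sham. Their summed level was 175.5 FPKM in sham, 194.2 (day 1), 487.6 (day 3), 740.1 (day 7), 537.0 (day 14) and 193.7 (day 28). The sum was thus highest at day 7 and back near sham at day 28, as were Ftl1 and Slc11a1. The sum of 8 markers of monocyte-derived macrophages went from 8.84 FPKM in sham to 366.8 at day 7, with Ccr2, Ly6c2, Plac8, Chil3 and Arg1 not listed in sham. Lyz2 alone gave 6.73 FPKM of the sum in sham and 357.1 FPKM of it at day 7. The sum of 10 astrocyte markers, all listed in every library, was 967 FPKM in sham and highest at day 3 with 1801, the day at which Cp was highest. Most of that difference came from Gfap (85.8 FPKM in sham and 697.9 at day 3) and Vim (15.5 and 167.3 FPKM), the only markers of the 10 past 2-fold there, and the median log2 ratio of the list was 0.34. For neurons, 9 of 10 markers were listed, and their sum was 1969 FPKM in sham and lowest at day 3 with 1444.

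The remaining marker sums had several courses. The neutrophil sum, with 8 of 9 markers listed in any library and 2 in sham, was 1.38 FPKM in sham, 20.96 at day 1 and 13.3 at day 14. Day 1, where it was highest, was also the highest day of Mt1 and Mt2, and of the endothelial, oligodendrocyte and hypothalamic sums below. Most of the neutrophil sum at day 1 came from S100a8 (6.185 FPKM) and S100a9 (10.14 FPKM). Csf3r, which gave most of it in sham (1.302 FPKM), was at 1.374 FPKM at day 1. The choroid plexus sum (7 of 8 markers listed) ranged from 188 FPKM at day 3 to 571 at day 28, beside 293 in sham, and the red blood cell sum (5 of 8 listed) from 161 at day 7 to 479 at day 3, beside 295. Endothelial (8 of 9 listed) and oligodendrocyte sums (8 of 9 listed) lay between 0.885 and 1.47 times sham, and the fibroblast sum (7 of 8 listed) was 53.4 FPKM in sham, 140.3 at day 7 and 53.3 at day 28, highest at day 7 like the microglia and macrophage sum. Hypothalamic neuropeptide genes (4 of 6 listed) summed to 0 in sham and 55.9 FPKM at day 1. The part of these cell types and of the tissue sampled in the results above was not tested.

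**Figure D5:**
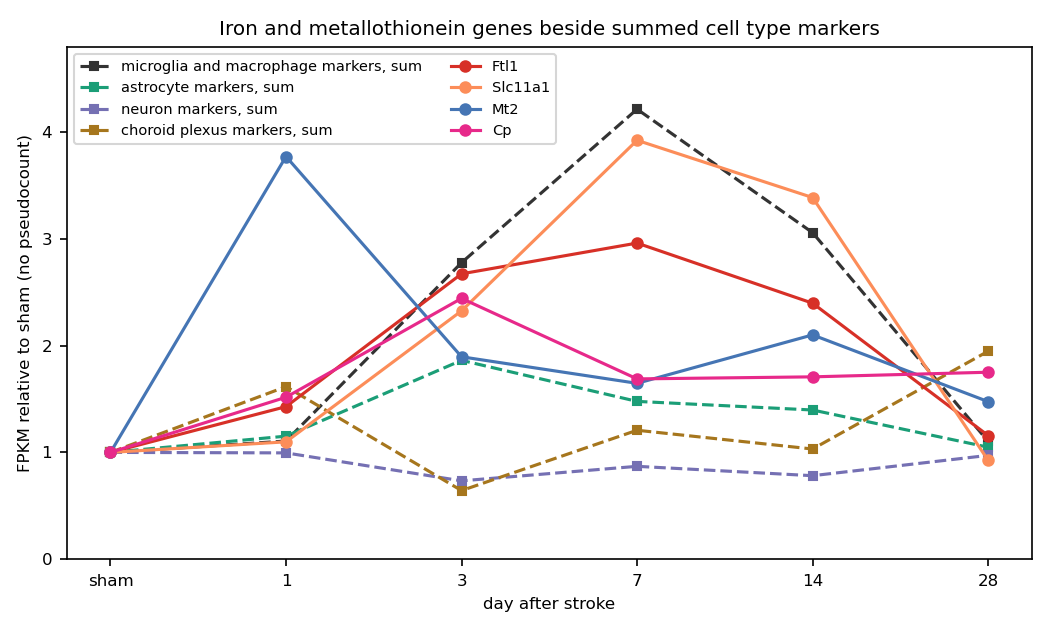
FPKM relative to the sham library (no pseudocount, linear axis from 0) for Ftl1, Slc11a1, Mt2 and Cp (solid lines) and for the summed microglia and macrophage, astrocyte, neuron and choroid plexus markers (dashed), 1 library per point. The microglia and macrophage sum is 4.22 times sham at day 7, and Mt2 is 3.77 times sham at day 1. At day 1 the neutrophil sum, not drawn, is 15.25 times a sham sum of 1.375 FPKM. The endothelial, oligodendrocyte and hypothalamic sums, not drawn, are also highest at day 1.

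The genes most like each of the members that passed 2-fold were taken by Pearson's r of log2(FPKM + 0.1) over the 6 libraries, which share the sham, depth and length differences above, among 3587 genes with a range of at least 1. For Ftl1 they were Cd53, Tgfb1 and Itgb2 (r = 0.998, 0.997 and 0.996), and 267 of the 3587 had r above 0.9. Those of Slc11a1 were Arl11, Tmem86a and Mthfs, with 212 above 0.9. The 3 genes closest to Mt2 were Osgin2, Hmga1 and Sh2b3, and those closest to Mt1 were Gm14686, Mthfd2 and Osgin2, with 49 and 36 genes above 0.9. Osgin2 was at 1.11 FPKM in sham and 9.30 at day 1. Slc40a1 came closest to Uggt2, Tubd1 and Itga4 (61 genes above 0.9) and Cp to Cep135, Slc16a9 and Mtss1l (29 genes). The profiles of Ftl1 and Slc11a1 were therefore more common in these libraries than those of Slc40a1, Mt2, Mt1 and Cp.

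A wider set of 95 genes of iron, haem, zinc and copper handling was examined beside the 10, of which 81 were listed in any library. In order of day, 70, 73, 72, 70 and 70 of them could be compared. Higher by 2-fold were 4, 7, 8, 7 and 2 and lower were 4, 0, 2, 3 and 1, and the shares of all genes are those given above. Genes not listed in 1 of the 2 libraries count as 0 here, and without them the counts were 2, 4, 7, 5 and 1 higher and 4, 0, 2, 0 and 1 lower. Those higher still include Cybrd1, Slc39a8 and Slc39a3, which were below FPKM 1 in sham and entered only through the post-stroke library. The counts are therefore not read as an excess over the shares of all genes. The medians of the set were 0.037, 0.088, 0.071, 0.14 and 0.025, close to those of all genes, but its lists differed. At days 3, 7 and 14 the medians were 0.451, 0.42 and 0.51 for iron uptake and 0.272, 0.585 and 0.494 for haem. Copper genes had 0.491, 0.36 and 0.236, and mitochondrial genes 0.055, 0.075 and 0.286. Zinc genes had 0.008, −0.007 and −0.143, and control genes 0.126, 0.114 and −0.143. Store and export genes had −0.108, −0.146 and −0.417.

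Among genes of this set listed in both libraries, the largest ratio was that of a haem gene. Hmox1, the inducible haem oxygenase that frees iron from haem, was at 2.20 FPKM in sham, 27.0 (day 1), 65.2 (day 3), 19.7 (day 7), 8.60 (day 14) and 3.63 (day 28). It was above 2-fold at days 1, 3, 7 and 14, with a log2 ratio of 4.83 at day 3. Hmox2, the constitutive enzyme, was at 29.0 FPKM in sham and called only at day 7 (61.8 FPKM, log2 1.09) and day 14 (76.8 FPKM, log2 1.40). Abcg2, an efflux pump of vessel walls that also carries porphyrins, was lower at day 1 (2.86 against 7.72 FPKM, log2 −1.40) and at day 7 (3.51 FPKM, log2 −1.12). Of the 13 haem genes, 9 could be compared at each day, with a median log2 ratio of 0.59 at day 7.

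Of 14 genes of iron uptake, 4 of 12 compared at day 3 and 4 of 11 at day 7 were higher and none was lower, beside 8.54% and 8.53% of all genes higher. At days 1, 14 and 28, 2 of 10, 3 of 11 and 1 of 10 were higher and 1 at each day was lower. All of these higher genes except Hfe (days 7 and 14) were below FPKM 1 or not listed in sham. They entered the comparison only through the post-stroke library, which nearly fixes a call of higher. The counts are therefore not read as an excess over the shares of all genes. Hfe, which binds the transferrin receptor, was at 1.70 FPKM in sham, 3.88 at day 7 and 3.54 at day 14 (log2 1.14 and 1.01). The ferric reductase Cybrd1 was at 0.707 FPKM in sham, 1.82 at day 3 and 1.64 at day 7 (log2 1.25 and 1.1). Slc39a8, a carrier of zinc and iron, was at 0.556 FPKM in sham, 1.23 at day 3 and 1.59 at day 7 (log2 1.02 and 1.36). These are low levels, and each of these genes had a day 28 value below 1 FPKM. The metalloreductase Steap4 was not listed in sham or at day 7 and was at 1.25 FPKM (day 1), 1.14 (day 3), 2.72 (day 14) and 0.648 (day 28). Lcn2, a siderophore-binding protein, was not listed in sham and ranged from 1.1 FPKM at day 28 to 26.6 at day 14.

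Genes that set or use iron gave few calls, too few to set apart from the shares of all genes. Of 15 control genes 12 could be compared, and at most 1 passed 2-fold in either direction at any day. At day 1, 1 was lower, and at each of days 3 and 7, 1 was higher, beside 4.48%, 8.54% and 8.53% of all genes. Nfe2l2, the antioxidant response factor that drives ferritin and Hmox1 genes, was at 5.34 FPKM in sham, 14.0 at day 3 and 11.7 at day 7 (log2 1.37 and 1.12). The messages of the iron regulatory proteins stayed near sham. Aco1 was at 7.76 FPKM in sham and 6.12 to 8.89 afterwards, and Ireb2 at 8.68 in sham and 7.95 to 10.1 afterwards. The level and activity of the proteins were not measured. Of 12 genes of mitochondrial iron use 11 could be compared at each day, with median log2 ratios between −0.030 and 0.286. The only call among them was 1 gene higher at day 14, beside 8.97% of all genes. The other store and export genes gave few values, since 3 of 10 were listed. Of these the ferroxidase Heph was at 1.55 FPKM in sham and 2.63 at day 1 and was not listed at day 14.

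At day 1, 1 of 18 zinc genes compared was higher and 1 lower, with a median of −0.044, beside 5.11% and 4.48% of all genes. At each of days 3, 7 and 28, 1 was higher, and at each of days 7 and 14, 1 was lower. All of these higher genes were below FPKM 1 or not listed in sham and entered only through the post-stroke library. The counts are therefore not read against the shares of all genes. Mtf1, the zinc-sensing factor of the metal response elements, was at 3.35 FPKM in sham and 6.42 at day 1, under 2-fold. The zinc importer Slc39a3 passed 2-fold upward at days 1, 7 and 28 but was at 0.456 FPKM in sham and 0.0045 at day 14. Slc30a4, a zinc exporter of vesicles, was between 4.19 and 5.51 FPKM in 5 libraries and not listed at day 14. None of the 8 copper genes listed was past 2-fold at any day, a number of genes too small to set against the shares of all genes. Sod3, the extracellular superoxide dismutase, came closest with a log2 ratio of 0.95 at day 14.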

How the data were processed

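RNA was poly(A)-selected, made into strand-specific libraries and sequenced as paired-end 150-base reads, per the labels. The submitters' processing notes name Trimmomatic 0.30, HISAT2 2.0.1, HTSeq 0.6.1 and build mm10. The program that made the event tables is not given in the sources used here. The authors deposited FPKM per event, and repeated rows of an event were counted once. The largest of summed starts, summed ends and any single event was taken per Ensembl identifier, and 15411 of 15441 identifiers matched GENCODE M21. A comparison took in every gene that reached FPKM 1 in the day or the sham library, with a pseudocount of 0.1. Depth per library is unknown from FPKM, so no interval is given. The length trend was the median log2 ratio in 20 bins of transcript length. Named genes outside the 10 were those past 2-fold in 1 direction at 2 or more days and the largest of each list, and 3 nearest genes per member. A gene named by this rule is not reported here. The levels of Aco1, Ireb2, Mtf1, Osgin2, Gfap, Vim, Lyz2 and Ttr were added after values were seen. The genes and lists were chosen with earlier results of these data known. Scripts (Python 3.11.15 with pandas 2.3.3, numpy 2.4.6, scipy 1.17.1 and matplotlib 3.10.9) were tested on simulated data.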

Additional observations from a re-analysis of the deposited data

How the results depend on the processing

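With 1 pooled library per group, no library could be left out and no spread between mice is known. No paired analysis was possible because each group holds 1 library and no test was made. The depth of each library is unknown, which limits the low genes Slc40a1 and Slc11a1 most. No called value changed direction under those of the 14 alternatives that gave it a value. Summed ends gave none for Mt1 and Slc11a1, and a filter at FPKM 5 gave none for Slc40a1 at day 1 or Slc11a1 at day 3. Of 672 values of single genes, called or not, 644 kept their status, 14 lost the call and 14 gained one. Of the gains, 12 came from lowering the threshold to 1.5-fold. Most of the 644 were values not called at the outset, so that number says little of how stable the calls are. With a threshold of 1.5-fold the counts of higher genes were 6 (day 3), 4 (day 7), 7 (day 14) and 1 (day 28), those of lower genes 1 at day 14 and 1 at day 28, and the medians of 0.689 at day 3 and 0.698 at day 14 passed it. The count of lower genes at day 1 was 0 with a pseudocount of 1, with a filter at FPKM 5 and with day 28 as the reference. From summed ends alone, where 8 genes could be compared because Mt1 and Slc11a1 had no end in sham, 1 gene (Mt2) was higher at day 1, 1 (Ftl1) at days 3 and 7, and 2 at day 14. At day 14 the count of higher genes was 2 when centred on the median of all genes, 2 when scaled to equal totals, 1 with the length trend removed and 2 against day 28. Scaling to equal totals gave 0.84 for Mt1 and 0.89 for Mt2 at day 14, and the day 28 reference gave 0.61 and 0.51. With a pseudocount of 1 the day 3 value of Slc11a1 was 0.88, and against day 28 that of Cp was 0.475. The day 28 reference and the larger of the start and end sums were chosen as alternatives after seeing the data.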
